A study of Mus musculus with 4 samples.

Results

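RNA polymerase I (Pol I) and the factors that start and stop it were followed at the transcript level in mouse embryonic fibroblasts (MEFs) that lack the chromatin protein Pf1. The set held 10 genes, taken by platform gene symbol: the subunit genes Polr1a, Polr1b, Polr1c, Polr1d and Polr1e, the initiation factor genes Rrn3, Ubtf, Taf1c and Taf1d, and the termination factor gene Ttf1. They were measured by 28 of 45101 probe sets, or 10 of 18194 genes once the probe sets of a gene were averaged. Pf1 is encoded by Phf12, binds Sin3 and histone deacetylase complexes, and is examined in this study for a part in keeping the nucleolus intact. The arrays came from 2 Pf1 -/- lines (lines 2 and 4) and 2 wild-type lines (lines 5 and 6), 1 array per line. All 4 lines were grown from torsos, without head and red organs, of embryos of day 13.5 or 14.5, were kept at 6% oxygen, and gave total RNA at passage 2 to 3. The labels tie neither the day nor the passage to a line, and name no embryo per line, so p-values reflect the spread between these lines alone. The titles of all 4 lines share a number before the line number. The labels do not say what it stands for, so whether the lines come from a single litter is not known.

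Pol I works in the nucleolus and transcribes a single kind of gene, the repeated ribosomal DNA, into the long precursor of the 18S and 28S ribosomal RNAs. Ubtf (UBF) coats the ribosomal DNA, the selectivity factor SL1 (the TATA-binding protein Tbp with the Taf1 proteins) marks the promoter, and Rrn3 (TIF-IA) joins the polymerase to SL1. Ttf1 binds the terminators at the end of the repeat and stops the polymerase. Polr1c and Polr1d are shared with RNA polymerase III, which makes transfer RNA.

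Every probe set had been centred on its median over the 4 arrays before deposit. A value is therefore a log2 difference from that median and holds no signal level, so levels could not be compared between genes. For a single probe set the middle 2 of the 4 values are equal and opposite by construction. Differences are knockout minus wild type on the log2 scale, ± the standard error (SE) from limma, for n = 2 lines per genotype. In the probe set 1434922_at, Phf12 itself stood 1.81-fold lower in the knockout (-0.86 ± 0.109, limma adjusted p = 0.0213), and the other Phf12 probe set, 1453579_at, at 0.012 ± 0.0976 (limma adjusted p = 0.965). The position of either against the deleted part was not analysed here, so neither probe set settles the genotype. Between lines, 506 to 823 genes differed at least 2-fold across genotypes, against 100 between knockout lines 2 and 4 and 168 between wild-type lines 5 and 6.

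No gene of the set passed the test as a mean of its probe sets. Limma called 0 of 10 at an adjusted p under 0.05, where 12.2% of all genes were called (5.21% higher, 6.95% lower). At an unadjusted limma p under 0.05, Polr1a, Polr1e, Rrn3 and Taf1c stood higher (4 of 10, against 14.3% of all genes). At that threshold 0 members stood lower, against 2765 of all 18194 genes. The differences lay above 0 for 9 genes (49.2% of all genes) and below 0 for Polr1c, with a median of 0.26 against -0.0027 over all genes. Polr1e (1.66-fold) and Rrn3 (1.45-fold) had the greatest differences. At the level of single probe sets, 2 of 28 rose, both of them for Polr1a, the largest subunit, where 8.32% of all probe sets were called (3.92% higher).

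Sequence before the start sites of 3 genes is shown because they span the range of the set: Rrn3 and Polr1e stood highest in the knockout relative to wild type, and Polr1c was the member on the other side. Each run is the 250 bases before the annotated start, from RefSeq on build GRCm38.p6, read 5′ to 3′ in the direction of the gene. Capitals mark matches to CACGTG, the E-box, and to CCGGAAG, an Ets-type motif, on either strand (CTTCCGG when read in the direction of the gene). The last capitals of Rrn3 are the first part of a match that runs past the start site.
Rrn3 (chr16:13780449-13780698, plus strand): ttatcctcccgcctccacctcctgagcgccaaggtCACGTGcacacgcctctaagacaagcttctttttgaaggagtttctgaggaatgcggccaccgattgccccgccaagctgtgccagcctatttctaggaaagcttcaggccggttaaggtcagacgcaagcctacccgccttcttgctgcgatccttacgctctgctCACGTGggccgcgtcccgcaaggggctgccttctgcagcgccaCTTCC
Polr1e (chr4:45018359-45018608, plus strand): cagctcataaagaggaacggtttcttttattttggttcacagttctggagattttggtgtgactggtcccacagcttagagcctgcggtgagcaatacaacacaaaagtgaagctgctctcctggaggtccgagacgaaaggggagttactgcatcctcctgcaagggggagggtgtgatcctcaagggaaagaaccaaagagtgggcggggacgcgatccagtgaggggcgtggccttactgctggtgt
Polr1c (chr17:46248046-46248295, minus strand): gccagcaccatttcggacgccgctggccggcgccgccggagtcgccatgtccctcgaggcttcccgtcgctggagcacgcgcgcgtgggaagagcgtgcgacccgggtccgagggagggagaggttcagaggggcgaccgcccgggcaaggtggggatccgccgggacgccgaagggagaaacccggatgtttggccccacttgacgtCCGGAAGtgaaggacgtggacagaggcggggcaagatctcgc
Over windows from 250 bases before to 50 bases after a start, CACGTG was present in 7.15% of 32851 annotated windows and in 1 of the 16 windows of the 10 members, that of Rrn3. Rrn3 held it at 215 and 48 bases before the start. CCGGAAG was present in 8.86% of all windows and in 5 of 16 member windows, with 1 each from Polr1c, Polr1e, Rrn3, Taf1c and Ttf1. In Polr1e the match lay 25 bases after the start, in Polr1c 42 bases before it, and in Rrn3 at 5 bases before and 18 bases after it. Counted by gene, CCGGAAG was present in 5 of the 10 members and in 9.93% of all genes. CACGTG was present in 1 of the 10 and in 8.09% of all genes. The Ets-type letters were found in Polr1c and in members above 0, and a link between motif and difference was not tested. The 2 motifs share no bases in these windows, and a match to the letters is not a measured binding site.

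**Figure D1:**
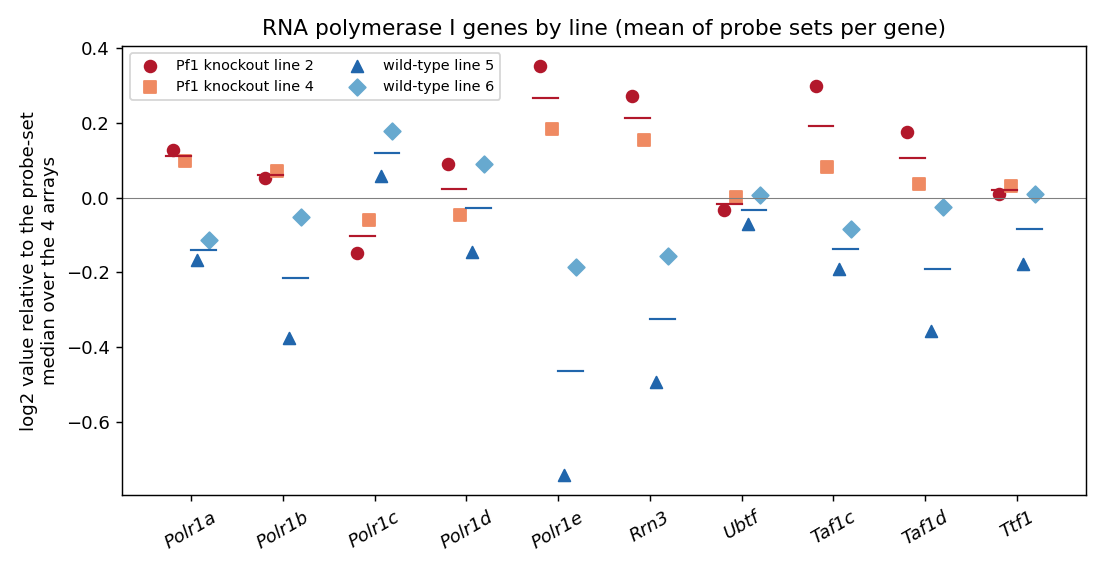
Log2 value of each member gene (mean of its probe sets, relative to the median over the 4 arrays) in Pf1 knockout lines 2 and 4 (circles, squares) and wild-type lines 5 and 6 (triangles, diamonds). Short bars are the means of the 2 lines of a genotype. Wild-type line 5 was the lowest line for every member except Polr1c, and at Polr1e it stood at -0.74.

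Polr1e encodes the subunit PAF53, which forms a dimer on the side of the enzyme and takes part in initiation. Its probe set 1419058_at gave 0.38 (line 2) and 0.19 (line 4) in the knockout, against -0.74 (line 5) and -0.19 (line 6) in wild type. The other, 1435057_x_at, gave 0.32, 0.18, -0.74 and -0.18 in the same order. The genotypes did not overlap, and wild-type line 5 lay 0.56 below line 6 in the mean of both, more than the smallest knockout to wild-type gap of 0.37. The mean difference was 0.73 ± 0.199 (limma adjusted p = 0.0792). Leaving out line 5 gave 0.45 and leaving out line 6 gave 1.01 (limma adjusted p = 0.148 and 0.0528).

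Polr1a, the catalytic subunit RPA194, was measured by 5 probe sets, 3 with differences above 0 and 2 below. For 1456066_a_at, values of 0.22 and 0.42 in the knockout stood against -0.22 and -0.34 in wild type, a 1.52-fold rise (0.60 ± 0.115, limma adjusted p = 0.0427). It was also the only probe set of the 28 in which wild-type line 6 was the lowest line. Probe set 1460215_at rose 1.41-fold, from -0.32 and -0.20 in wild type to 0.28 and 0.20 in the knockout (0.49 ± 0.101, limma adjusted p = 0.0487). Another probe set designed from the same cDNA record, 1417775_at, stood at 0.18 and 0.061 against -0.43 and -0.061 (0.37 ± 0.149, limma adjusted p = 0.212). Its difference was 0.18 without line 5 and 0.55 without line 6. The last 2, 1447597_at and 1447598_x_at, come from a different cDNA record and were at -0.12 and -0.079 (limma adjusted p = 0.485 and 0.724). The mean of all 5 was 0.13 and 0.097 in the knockout and -0.17 and -0.11 in wild type, a difference of 0.25 ± 0.0808 (limma adjusted p = 0.112). Neither probe set call held when any 1 line was left out, with limma adjusted p from 0.123 to 0.213 for 1456066_a_at and from 0.0871 to 0.284 for 1460215_at. The first missed the threshold narrowly after quantile normalization, and the second did so after array medians were subtracted (limma adjusted p = 0.0502).

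Polr1b, the second-largest subunit (RPA135), which forms the active centre together with Polr1a, had 1 probe set. It stood at 0.052 and 0.071 in the knockout and at -0.38 and -0.052 in wild type. The knockout lines lay above both wild-type lines, but line 5 alone was far below the rest, and the difference of 0.28 ± 0.129 did not pass (limma adjusted p = 0.238). Without line 5 it was 0.11.

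Of the subunits shared with Pol III, Polr1c (AC40) was the member lower in the knockout, in both of its probe sets. In 1417041_at, line 2 stood at -0.21, line 4 at -0.046, line 5 at 0.046 and line 6 at 0.18, and in 1449648_s_at the same lines were at -0.086, -0.072, 0.072 and 0.17. The genotypes did not overlap in either. The mean of -0.22 ± 0.0913 missed the threshold (limma adjusted p = 0.188) and kept its sign, between -0.28 and -0.16, with each line left out in turn.

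Polr1d (AC19), which pairs with Polr1c in the assembly core of both enzymes, had 4 probe sets and a mean near 0 (0.050 ± 0.116, limma adjusted p = 0.836). That mean joined unlike values. Probe set 1448287_at stood at 0.33 and 0.21 in the knockout and -0.54 and -0.21 in wild type, 1.56-fold apart (0.64 ± 0.141, limma adjusted p = 0.0564, and 0.0351 after quantile normalization). The other 3 lay between -0.17 and -0.13 in their differences, with knockout line 4 lowest and wild-type line 6 highest in each. Of these, 1447320_x_at and 1459657_s_at were designed from a common cDNA record. Set against the mean of those 3 within each array, 1448287_at was at 0.31 (line 2) and 0.34 (line 4) in the knockout and at -0.53 (line 5) and -0.40 (line 6) in wild type. The genotypes differed by 0.79 in this contrast, which was chosen after its values were seen (exact two-sided permutation test, p = 0.333, the smallest that 2 against 2 lines allow). RefSeq lists 2 curated Polr1d transcripts, and which of them each probe set detects was not analysed here.

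**Figure D2:**
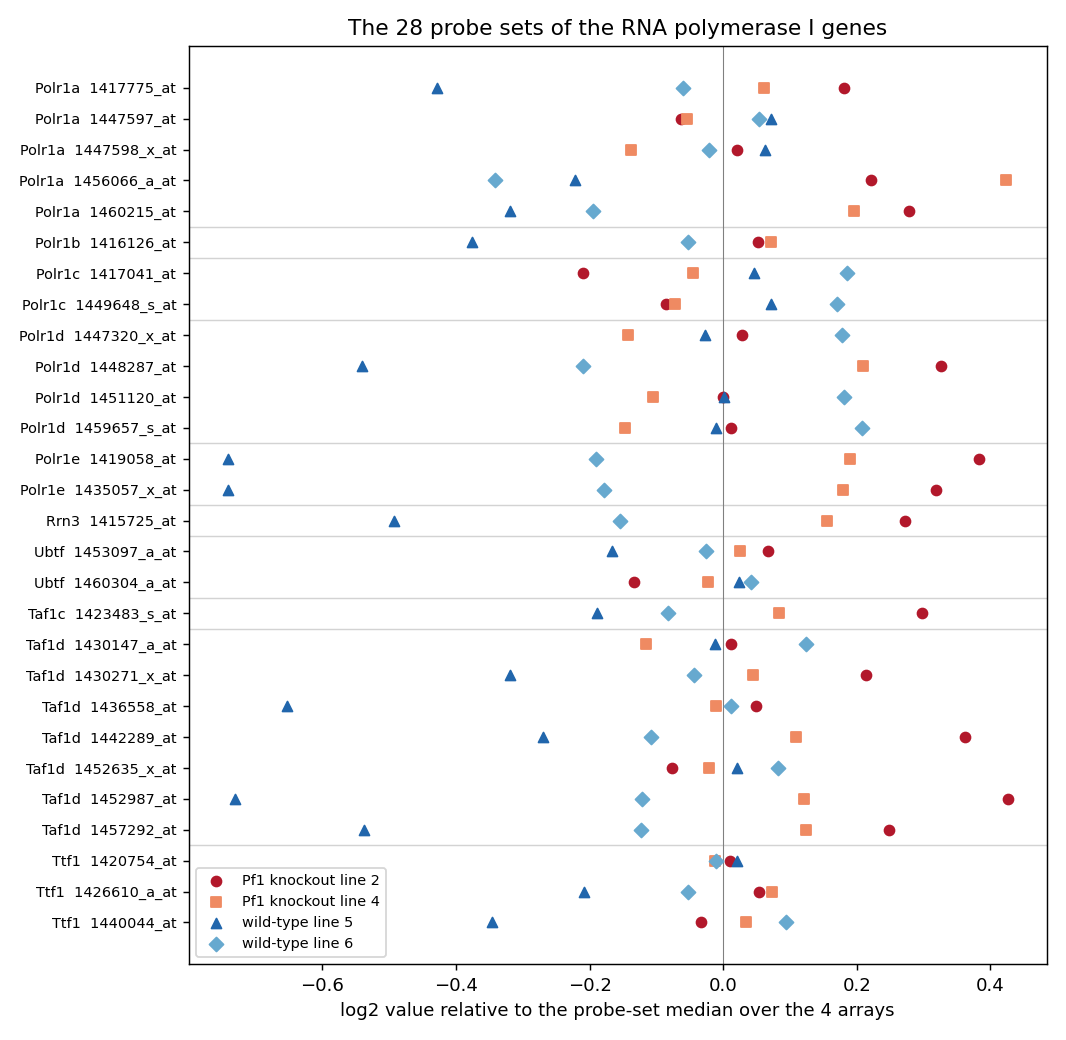
Log2 value of each of the 28 probe sets, relative to its median over the 4 arrays, in the 4 lines (symbols as listed in the legend), grouped by gene. Both Polr1e probe sets show the same order of lines, whereas Polr1a, Polr1d, Ubtf and Taf1d each hold probe sets with the knockout above and below wild type.

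Over all 28 probe sets, 17 differences were above 0 (50.7% of all probe sets) and 11 below. Both knockout lines lay above both wild-type lines in 15 (27.8% of all probe sets) and below them in 6 (26.3%), and the genotypes overlapped in 7. Wild-type line 5 was the lowest of the 4 lines in 16 of 28, against 29.3% of all probe sets.

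Among the initiation factors, Rrn3 had the smallest p of the set. Its probe set gave 0.27 (line 2) and 0.15 (line 4) with Pf1 absent, and -0.49 (line 5) and -0.15 (line 6) with Pf1 present. The genotypes did not overlap and differed by 0.54 ± 0.137 (limma adjusted p = 0.0690). Rrn3 passed after quantile normalization (limma adjusted p = 0.0480) and not with any line left out, where the difference ran from 0.37 without line 5 to 0.71 without line 6.

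Ubtf had 2 probe sets with differences of opposite sign. Probe set 1453097_a_at stood at 0.067 and 0.026 in the knockout and -0.17 and -0.026 in wild type, and 1460304_a_at at -0.13 and -0.023 against 0.023 and 0.041. The gene mean was 0.016 ± 0.0830 (limma adjusted p = 0.934) and was at -0.024 without wild-type line 5.

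For SL1, Taf1c stood at 0.30 and 0.083 in the knockout and -0.19 and -0.083 in wild type in its single probe set, 1.25-fold apart (0.33 ± 0.109, limma adjusted p = 0.123). Here knockout line 2 stood apart more than line 5 did, and without line 2 the difference was 0.22. Taf1d had 7 probe sets, 5 with differences from 0.31 to 0.70 and 2 at -0.11 and -0.10. The widest, 1452987_at, stood at 0.43 and 0.12 against -0.73 and -0.12 (0.70 ± 0.229, limma adjusted p = 0.136), and the difference was 0.39 without line 5. In 1436558_at wild-type line 5 alone was low, at -0.65, and the other 3 lines lay between -0.011 and 0.049. The gene mean of Taf1d was 0.30 ± 0.138 (limma adjusted p = 0.235), and 0.13 without line 5. The Taf1d locus (chr9:15305953-15316997, GRCm38.p6) also holds 6 annotated snoRNA genes, more than any other member locus, where RefSeq lists 0.

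Ttf1, the termination factor, had 3 probe sets with differences of 0.19, 0.13 and -0.0054, none of which passed (limma adjusted p from 0.320 to 0.984). As a gene mean, line 2 was at 0.010, line 4 at 0.032, line 5 at -0.18 and line 6 at 0.010. Line 5 was low, and the other 3 lines were nearly level. The difference was 0.10 ± 0.0984 (limma adjusted p = 0.560), and 0.011 without line 5.

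As gene means, both knockout lines lay above both wild-type lines in 7 of the 10 members (28.7% of all genes) and below them in Polr1c (29.5% of all genes). Polr1d and Ubtf overlapped. Ttf1 counts among the 7 by only 4.72e-05. Line 5 was the lowest line in 9 of 10 members, against 30.4% of all genes. A low line 5 was not particular to the set. In lists described further below, it was lowest in 7 of 8 Pol II subunits, 7 of 10 Pol III subunits and 9 of 16 Pol III factors. It was lowest in 5 of 7 other Pol I genes, 12 of 21 regulators of Pol I and 1 of 3 subunits shared by all 3 polymerases. The median over the 10 members was 0.11 in line 2, 0.053 in line 4, -0.18 in line 5 and -0.039 in line 6. The median difference of 0.26 was 0.12 when line 5 was left out and 0.33 when line 6 was. It was 0.43 when each gene was represented by its most variable probe set, with Polr1a and Polr1d then called (limma adjusted p = 0.0390 and 0.0490). A variance filter (genes under the 0.25 quantile left out) called Polr1e and Rrn3 (limma adjusted p = 0.0344 and 0.0438). Both choices rest on the variance over all 4 lines, which includes the gap between genotypes. They favour probe sets or genes with a large difference, so these calls are not independent evidence of a rise. Among all genes, these settings called 2494 and 2486, against 2211 in the main fit.

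**Figure D3:**
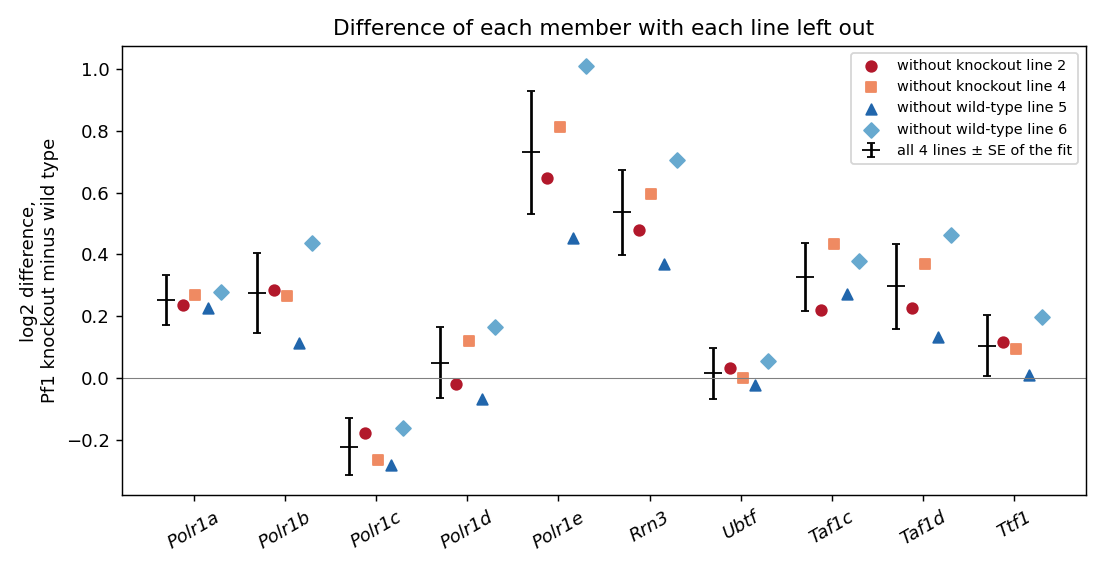
Log2 difference, knockout minus wild type, for each member gene with all 4 lines (black bar ± SE of the limma fit) and with each line left out. For 8 of the 9 members above 0, the value without wild-type line 5 is the lowest of the 4 left-out values; Taf1c is lowest without knockout line 2.

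Other genes of the pathway were taken from whole lists, and those named in a list are its genes of smallest p unless the whole list is given. Over all genes, 5.21% were called higher and 6.95% lower, and 49.2% of differences lay above 0. Of 7 further Pol I genes, 4 differences were above 0 and 3 below, and 1 gene rose: Polr1f, the stalk subunit (listed by the platform under its older symbol Twistnb), at 0.20 and 0.28 in the knockout and -0.45 and -0.20 in wild type (0.57 ± 0.114, 1.49-fold, limma adjusted p = 0.0401). The median of these 7 was 0.35. Tbp, the TATA-binding protein used by all 3 polymerases, was at 0.35 ± 0.0812 (limma adjusted p = 0.0548), Polr1g (Cd3eap), the dimer partner of Polr1e, at 0.38 ± 0.118 (limma adjusted p = 0.103), and the SL1 subunit Taf1a at 0.40 ± 0.144 (limma adjusted p = 0.145). Without wild-type line 5, Polr1g stood at 0.26 and Taf1a at 0.21. The 3 below 0 were Taf1b, another SL1 subunit, at -0.20 ± 0.119, with both knockout lines below both wild-type lines, Taf12 at -0.079 and Polr1h at -0.069 (limma adjusted p from 0.346 to 0.749). Of the subunits that all 3 polymerases share, 3 of 5 had a named probe set and 0 were called (Polr2e 0.31, Polr2h -0.16 and Polr2f 0.073). Polr2e alone was higher at an unadjusted limma p under 0.05, as were 14.3% of all genes. Polr2h was at -0.25 without line 5 and at -0.063 without line 6.

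Regulators of Pol I and of nucleolar chromatin had 4 of 21 measured genes higher and 0 lower, with a median of 0.19. Nolc1 (Nopp140), a nucleolar phosphoprotein, rose 2.28-fold, from -1.04 (line 5) and -0.42 (line 6) to 0.45 (line 2) and 0.47 (line 4) (1.19 ± 0.209, limma adjusted p = 0.0319). The RNA helicase Ddx21 rose 1.93-fold (0.95 ± 0.153), the rDNA-bound repressor Mybbp1a 1.64-fold (0.71 ± 0.118) and the helicase Dhx33, a partner of UBF, 1.45-fold (0.53 ± 0.0787), with limma adjusted p from 0.0237 to 0.0289. In Dhx33 the lines of a genotype were close, at 0.27 and 0.26 against -0.26 and -0.28.

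The subunits of the sister enzymes were read against the same shares of all genes. Of 8 Pol II subunits 1 rose, Polr2j (0.72 ± 0.0832, limma adjusted p = 0.0167), and all 8 differences were above 0, with a median of 0.24. Of 10 Pol III subunits, Polr3a (0.53 ± 0.0913), the catalytic one, and Polr3f (0.50 ± 0.0815) rose, while Polr3gl (-0.53 ± 0.104) and Polr3c (-0.42 ± 0.0847) fell, with limma adjusted p from 0.0274 to 0.0411 and a median of 0.17. Each fall was lost under 1 alternative with all 4 lines, Polr3gl with the most variable probe set (limma adjusted p = 0.0519) and Polr3c with the variance filter (limma adjusted p = 0.0502). Of 16 Pol III factors, Snapc3 (0.57 ± 0.0915) and the TFIIIB subunit Bdp1 (0.60 ± 0.118) rose (limma adjusted p = 0.0273 and 0.0399), and Maf1, the repressor of Pol III, was at -0.35 ± 0.0804 (limma adjusted p = 0.0537). The median of the factors was 0.088. The difference between Pol I and these lists was not tested. With any 1 line left out, 1 residual degree of freedom remained and limma called 0 genes in every list above, against 0 to 321 over all genes.

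**Figure D4:**
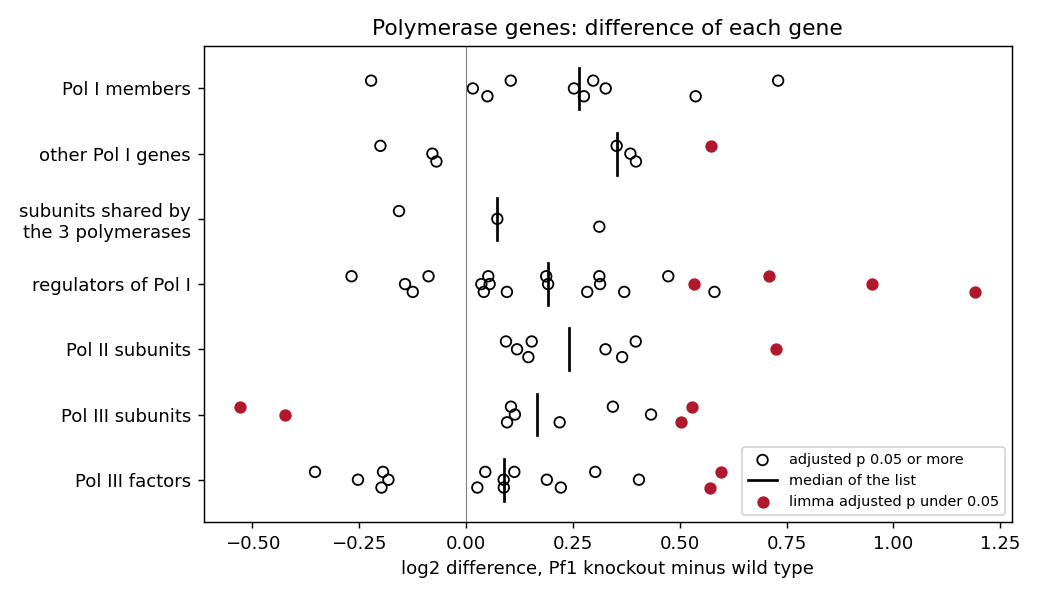
Log2 difference, knockout minus wild type, of each gene (circles) in the Pol I set and in 6 other lists of polymerase genes, with the list median as a vertical bar. Filled circles passed limma at an adjusted p under 0.05; the Pol I set holds none, and Pol III subunits hold 2 on each side of 0.

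Control probe sets for 18S RNA, left out of the fit, averaged 0.64 in line 2, 0.070 in line 4, -0.070 in line 5 and -0.77 in line 6. Both knockout lines stood above both wild-type lines in each of the 3, with differences of 0.67, 0.72 and 0.94, and line 6 was lowest. That order held in 27.8% of all probe sets outside the controls. The 3 carry the same sequence record and are not separate observations. In each, lines 4 and 5 lay nearer to each other than the 2 lines of either genotype did. What this signal says about the amount of ribosomal RNA was not tested. Marker counts stand beside shares of 5.21% of all genes called higher and 6.95% called lower. At an unadjusted limma p under 0.05, 14.3% of all genes were higher and 2765 of 18194 were lower. Among markers of cell types a torso culture could hold, 7 of 9 smooth muscle markers rose. Their list medians were 0.40 and 0.32 in the knockout and -0.45 and -0.33 in wild type. Line 5 was the lowest line in 8 of these 9, against 30.4% of all genes. Of 8 fibroblast markers 5 fell and 0 rose, Col1a1 among them (-0.96), of 9 epithelial markers 2 rose and 1 fell, and of 7 endothelial markers 1 rose and 1 fell. Acta1 was the 1 of 7 skeletal muscle markers that rose. Limma called 0 of 9 macrophage markers (0 at an unadjusted p under 0.05), with medians of -0.27, 0.56, 0.43 and -1.37 in lines 2, 4, 5 and 6. Of the 4 erythroid and 6 neural markers measured, 0 were called (at an unadjusted p under 0.05, 1 erythroid marker was lower and 2 neural markers were higher). The part of cell makeup in the Pol I differences was not tested. Centred values do not show whether a marker was present at all, and in bulk RNA fewer cells of a type and less RNA per cell cannot be told apart.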

How the data were processed

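Total RNA of 4 MEF lines was hybridised to 1 Affymetrix array each. The deposited values are log2 values from Affymetrix Expression Console and RMA, per the submitters' processing notes, which give no version or log base; the base is that of RMA. The deposited rows had been centred: the 4 values of a probe set had a median of 0 (100% of probe sets, within 1e-06), a step without a description in the labels.

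Symbols came from the platform annotation and matched RefSeq (GRCm38.p6) through Entrez identifiers for 34754 of 34958 probe sets with 1 gene; 0 symbols changed. Probe sets naming several genes were left out, and none of these named a member. Centred values gave no filter on dim probe sets. All 10 members had a probe set, and all were tested.

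The difference between genotypes was estimated in limma 3.58.1 (R 4.3.3; lmFit, then eBayes), with no covariate, on 18194 gene means and, separately, on 45037 probe sets without the 64 controls. Benjamini-Hochberg adjustment ran over each whole table, and a call is an adjusted p under 0.05. The fits had 2 residual and 3.04 (genes) or 3.22 (probe sets) prior degrees of freedom, and 4 arrays limit the precision. Named genes are all members, Phf12 and, per other list, up to 4 genes of smallest p and all called genes where 5 or fewer were called; markers are given as counts, and Col1a1 and Acta1 were chosen after their values were seen. Members and lists were chosen with earlier results of these data known. Alternatives were the choice of probe sets, normalization, centring, array weights, robust eBayes, a variance filter and each line left out.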

Additional observations from a re-analysis of the deposited data

How the results depend on the processing

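Of 108 member gene values over 11 alternatives, 99 kept direction and side of the threshold, 5 passed newly and 4 changed sign; of 224 member probe set values over 8 alternatives, 209 kept both, 10 lost and 1 gained a call, and 4 changed sign. The count of called members was 0 in the main fit, 2 with the most variable probe set per gene, 1 after quantile normalization (Rrn3), 2 with the variance filter (Polr1e and Rrn3), and 1 gene when probe sets were fitted singly. Among all genes, the main fit called 2211 of 18194. The most variable probe set called 2494, quantile normalization 2663, and the variance filter 2486 of the genes it kept. The most variable probe set and the variance filter were chosen on all 4 lines, with the gap between genotypes included. The median member difference was 0.43 with the most variable probe set and ran from 0.12 to 0.33 with a line left out. Called member probe sets numbered 1 after array medians were subtracted and 0 with any line left out. Over all genes, calls ran from 0 to 321 with a line left out. The other polymerase lists had 0 calls with any line left out. With the most variable probe set, other Pol I genes had 2 calls and shared subunits 1, and after quantile normalization other Pol I genes had 2. Pol III subunits had 3 calls in place of 4 with the most variable probe set, where Polr3gl missed the threshold (limma adjusted p = 0.0519), and with the variance filter, where Polr3c did (limma adjusted p = 0.0502). Signs changed with a line left out for Polr1d (range -0.067 to 0.17), Ubtf (-0.024 to 0.056) and the probe sets 1447598_x_at (-0.16 to 0.00086), 1420754_at (-0.021 to 0.010) and 1440044_at (-0.094 to 0.35). A lost call with a line left out goes with fewer samples. With the variance filter, Polr1e (0.73), Rrn3 (0.54) and Polr3c (-0.42) kept their differences. Polr3gl (-0.53) kept its difference with the most variable probe set. In these cases only the limma p and its adjustment changed. The cause of the other changes was not tested. Ubtf has no value with the variance filter, nor Taf1c without _s_at and _x_at probe sets, because those choices removed them. No paired analysis was possible because knockout and wild-type lines share no line number. Signal over background cannot be read from centred values.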

Other observations

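Polr3g and Polr3gl encode alternative forms of the same Pol III subunit. The pair was chosen after its values were seen. Polr3gl fell (-0.53 ± 0.104 SE, limma adjusted p = 0.0397), with knockout lines 2 and 4 at -0.29 and -0.19 and wild-type lines 5 and 6 at 0.19 and 0.38. The call was lost at the same difference with the most variable probe set per gene (limma adjusted p = 0.0519), and with any line left out (limma adjusted p from 0.0959 to 0.216). Polr3g stood at 0.12 and 0.24 against -0.38 and -0.12 and did not pass (0.43 ± 0.120, limma adjusted p = 0.0818). The genotypes did not overlap for either paralogue. Among all genes, both knockout lines lay below both wild-type lines in 29.5% and above them in 28.7%.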
